A study of Mus musculus with 28 samples.

Results

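The regions described here are 5 kb windows of the mouse genome that carried trimethylated lysine 9 of histone H3 (H3K9me3) in control B16 melanoma cells and had no called H3K9me3 in control MC38 colon adenocarcinoma cells. A window entered if at least 500 bp lay under H3K9me3 islands in each of the 3 B16 control libraries and 0 bp in each of the 3 MC38 control libraries. The authors called islands from 200 bp bins with more reads than background, bridging gaps of up to 600 bp, at a false discovery rate of 0.05. The rule found 16777 windows (83.9 Mb), which were 28.6% of the 58710 windows covered in all B16 control libraries and 3.86% of the 434293 autosomal windows with an island in any of the 24 libraries. They are called B16-only windows below. A further 18790 windows were covered in all 6 control libraries of both lines and serve as the comparison set of shared windows. The windows were chosen by H3K9me3 in the control libraries, so its difference between the control lines is a description and has no test. At the edge of the rule, 956 B16-only windows had 600 bp as their lowest cover, 1021 windows just outside had 400 bp, and 421 were left out for 200 bp of MC38 islands.

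The study profiled the B16OVA melanoma line and the MC38 line by chromatin immunoprecipitation and sequencing of chromatin cut with micrococcal nuclease, and asked about both marks at places where an exon is spliced to a transposable element. CTRL cells were transduced with an empty pCRISPR-v2-puro vector and SETDB1 cells with the vector carrying a guide against Setdb1, labelled as Setdb1 knockout. All cells were grown in puromycin, and no label says how many clones a line held. Each line, genotype and mark had 3 numbered libraries, made from more cells for H3K9me3 than for H3K9Ac. Nothing says that these were separate cultures, so the p-values cover only spread among these libraries, which may be technical.

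H3K9me3 marks silenced chromatin, where it is bound by heterochromatin proteins and covers transposable elements, gene clusters that are off in a cell type and zinc finger genes. SETDB1 is one of the enzymes that writes it and is brought to many transposable elements by zinc finger proteins and the corepressor TRIM28. Acetylation of the same lysine (H3K9Ac) is found at active promoters and enhancers, and 1 histone tail cannot carry both marks at lysine 9.

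A 5′ end was taken only for genes with a single promoter entry, 13797 of the 20665 autosomal protein-coding genes. In 427 of them (3.09%) it lay in a B16-only window, near the 3.41% that these windows were of all autosomal windows. The 5′ ends of 394 protein-coding genes with an established symbol lay in B16-only windows. Acetylation of those windows was higher in MC38 controls at 18 of them, higher in B16 controls at 10 and not called at 234, and 132 had too few reads for a test. Of all windows tested 4.69% were higher in MC38 and 6.20% in B16, a background not limited to windows with a 5′ end. The upstream sequence of 5 of the called genes is given as examples, which do not stand for the other called genes. The 5 were chosen after their values were seen, from those whose upstream bases overlap no annotated gene. Each line gives the 250 bases before the annotated start, 5′ to 3′ on the gene's strand, from RefSeq's GRCm38.p6 table, with TATAAA or GGAATG on either strand in capitals. At the first 3 genes the window at the 5′ end had acetylation in MC38 controls and no H3K9Ac island in any B16 control library. The 5′ windows of the last 2 had the reverse, though Acpp as a whole was acetylated in both lines.
Ankrd1 (chr19:36119845-36120094, minus strand): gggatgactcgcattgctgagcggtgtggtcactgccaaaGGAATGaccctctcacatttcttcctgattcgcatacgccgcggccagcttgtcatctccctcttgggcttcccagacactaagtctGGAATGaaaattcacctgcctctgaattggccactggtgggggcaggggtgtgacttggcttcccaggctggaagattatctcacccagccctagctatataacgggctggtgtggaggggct
Gatm (chr2:122611278-122611527, minus strand): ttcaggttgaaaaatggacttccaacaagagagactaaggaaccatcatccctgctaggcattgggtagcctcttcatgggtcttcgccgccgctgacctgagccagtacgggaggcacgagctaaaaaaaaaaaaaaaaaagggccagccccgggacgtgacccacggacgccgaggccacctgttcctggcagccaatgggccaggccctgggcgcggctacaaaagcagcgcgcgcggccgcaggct
Arl14 (chr3:69222169-69222418, plus strand): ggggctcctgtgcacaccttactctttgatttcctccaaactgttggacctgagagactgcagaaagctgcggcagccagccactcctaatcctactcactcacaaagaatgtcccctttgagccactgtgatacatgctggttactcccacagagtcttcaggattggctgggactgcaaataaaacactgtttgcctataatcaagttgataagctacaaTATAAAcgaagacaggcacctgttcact
Ch25h (chr19:34475149-34475398, minus strand): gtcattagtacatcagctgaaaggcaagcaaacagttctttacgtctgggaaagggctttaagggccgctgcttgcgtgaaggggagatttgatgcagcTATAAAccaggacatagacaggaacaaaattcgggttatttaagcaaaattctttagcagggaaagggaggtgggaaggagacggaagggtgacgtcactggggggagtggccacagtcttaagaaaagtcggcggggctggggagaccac
Acpp (chr9:104337723-104337972, minus strand): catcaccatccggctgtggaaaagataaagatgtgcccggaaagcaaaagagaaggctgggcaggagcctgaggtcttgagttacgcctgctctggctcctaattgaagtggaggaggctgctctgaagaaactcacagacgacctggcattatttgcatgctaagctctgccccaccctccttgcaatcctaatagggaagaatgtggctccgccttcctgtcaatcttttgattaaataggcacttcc

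The window at the 5′ end of Ankrd1, a target gene of the YAP coactivator, had no H3K9Ac island in any B16 library and 18.3, 12.9 and 16.5 island reads per 1000000 island reads of the library (RPM) in MC38 CTRL (edgeR adjusted p = 0.00013). At Gatm, an enzyme of creatine synthesis, the 5′ window had no H3K9Ac island in B16 and 11.1, 10.6 and 7.51 RPM in MC38 CTRL (edgeR adjusted p = 0.00113). Arl14, a small GTPase of the ARF family, had no island in B16 and 8.90, 6.30 and 8.27 RPM in MC38 CTRL (edgeR adjusted p = 0.00203). The groups did not overlap at any of the 3 genes, and all MC38 SETDB1 libraries were acetylated there too. In the other direction Ch25h, which hydroxylates cholesterol, had 5.04, 3.99 and 4.52 RPM in B16 CTRL (edgeR adjusted p = 0.00661). Acpp, prostatic acid phosphatase, had 5.36, 3.28 and 4.60 RPM in B16 CTRL at its 5′ end (edgeR adjusted p = 0.00696). No MC38 CTRL library had an island over the 5′ window of Ch25h or Acpp, so these windows held both marks in the B16 population. The windows of Ankrd1, Gatm, Arl14, Ch25h and Acpp each had enough reads for a test through a single line. Their p-values are therefore a description. Among the 394 promoters TATAAA was found in 16.8%, CACGTG in 6.60%, TGANTCA in 8.88%, GGGCGG in 34.5% and GGAATG in 10.2%, searched on both strands with no motif contained in another. Of the 32817 promoters of the table outside chromosome 18, 12.4%, 6.02%, 6.75%, 32.7% and 12.6% held them. These 32817 include non-coding genes and genes with several promoters, so they are not a like set for the 394. The motifs were chosen after the values were seen, and a match is a run of letters, not a bound site. The median number of CpG per 250 bases was 5 in the 394 promoters and 6 in the 32817.

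The 12 H3K9me3 libraries held 15200766 to 45419584 island reads over 215 to 563 Mb, and the 12 H3K9Ac libraries 28453371 to 78087809 reads over 380 to 470 Mb. MC38 SETDB1 replicates 1 and 3 of H3K9me3 stood apart, with the longest and the shortest covered length. A window with no island has the value 0, which means that no enrichment was called and not that reads were absent, so a level against a group at 0 is given without a fold. All 7 melanoma markers had more H3K9Ac in B16 than in MC38 controls (sums of 941 to 1510 and 220 to 282 RPM), and Tyr, Tyrp1 and Dct were at 0 in MC38. Of 6 colon epithelium markers only Krt8 was higher in MC38 (sums of 127 to 160 RPM in B16 and 140 to 175 in MC38), so this list gives little check of the MC38 label. Of 23 fibroblast genes tested 6 were higher in MC38 and 1 in B16 (sums of 762 to 876 RPM in B16 and 1075 to 1229 in MC38), while Dcn and Lum had no island in either line. Of 21 leukocyte genes tested 1 was higher in MC38 (sums of 133 to 201 and 163 to 306 RPM), with Adgre1, Gzmb, Klrb1c, Ms4a1 and Ncr1 at 0 in both lines. The part of other cells in the results below was not tested. H3K9Ac over Setdb1 was 74.1, 73.8 and 79.9 RPM in B16 CTRL and 69.6, 73.1 and 86.1 in B16 SETDB1 libraries, and acetylation of a gene does not check a knockout made by a guide.

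B16-only windows were spread unevenly over the genome. Chromosome 6 held 3075 of them (18.3%), chromosome 1 held 2563 and chromosome 12 held 1665, together 43.5%. They were 10.3% of all windows of chromosome 6, 6.94% of chromosome 12 and 6.56% of chromosome 1, against 3.41% over all autosomes. Chromosome 14 had 52 (0.208%), chromosome 18 had 73 (0.403%) and chromosome 13 had 166 (0.690%). The whole H3K9me3 domain of the controls was itself uneven: on chromosome 6, 29.04% of windows were covered in all B16 CTRL and 20.8% in all MC38 CTRL libraries, while on chromosome 3 the shares were 14.7% and 43.0%, and on chromosome 13 they were 6.77% and 21.2%. Within chromosome 6 the 5 Mb from 40000001 to 45000000 were densest, with 347 B16-only windows (34.7% of that stretch), followed by 35000001 to 40000000 with 323. The number of copies of a chromosome in each line was not measured here.

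**Figure D1:**
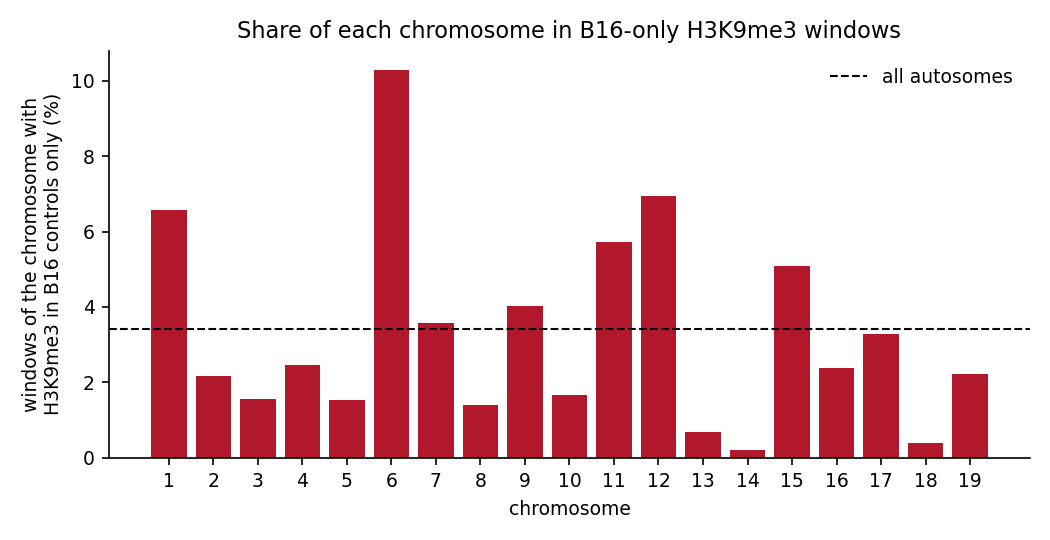
Share of the 5 kb windows of each mouse autosome (x axis, chromosome number) that were B16-only H3K9me3 windows (y axis, percent), with the dashed line at the share over all autosomes. Chromosome 6 stands at 10.3% and chromosomes 12 and 1 near 7%, while chromosomes 13, 14 and 18 are under 1%.

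The windows formed 10383 runs, of which 6661 were single windows and 40 were 10 windows or longer. The longest runs had 22 windows (110 kb), and both lay on chromosome 6. The first (41060001 to 41170000) lay in the T cell receptor beta variable segments, whose 35 annotated Trbv segments included 28 (80%) in B16-only windows. H3K9me3 over this run was 330, 372 and 428 RPM in B16 CTRL, 302, 358 and 339 RPM in B16 SETDB1, and 0, 34.7 and 0 RPM in MC38 SETDB1 libraries. The other antigen receptor families counted held few, with 2 of 162 Igkv segments on the same chromosome, 12 of 183 Ighv and 0 of 130 Trav segments in B16-only windows. The second run (41880001 to 41990000) held Sval1 and Sval3, genes related to seminal vesicle antigen, and a neighbouring run (42020001 to 42125000) held the seminal vesicle antigen gene Sva itself. H3K9me3 over the Sval1 run was 303, 288 and 353 RPM in B16 CTRL and 269, 271 and 260 RPM in B16 SETDB1, against 0, 9.24 and 0 RPM in MC38 SETDB1. Sval1, Sval3 and Sva had no H3K9Ac island over the gene in any of the 12 libraries. Between the Trbv and Sval1 runs, the trypsin-family genes Try10 and Prss3 lay in 12 neighbouring windows (41335001 to 41395000) that all kept H3K9me3 in B16 SETDB1 and had none in MC38 SETDB1 libraries. The longest run on another chromosome (chromosome 11, 83640001 to 83730000, 18 windows) held the chemokine genes Ccl3 and Ccl4 and the whey acidic protein-domain genes Wfdc17 and Wfdc18. There H3K9me3 was 234, 293 and 317 RPM in B16 CTRL and 226, 284 and 269 RPM in B16 SETDB1, with no island in any MC38 library of either genotype.

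In protein-coding genes the windows were fewer than over the genome, since 31.0% of B16-only windows overlapped one against 43.1% of all autosomal windows and 22.1% of shared windows. Of 20665 autosomal protein-coding genes 2239 (10.8%) overlapped at least 1 B16-only window, 1258 of these overlapped a single one and 65 overlapped 10 or more. The 2239 genes were long, with a median of 54.5 kb against 17.5 kb for all. Cntnap2, a neurexin-like adhesion molecule of neurons, held the most (99 of its 449 windows). Next came Pard3b, a cell polarity protein (82 of 202), Nckap5 (38), Tmem178b (33) and Cadps2, which primes secretory vesicles for release (28). A few shorter genes were covered almost whole. Mgam, the intestinal maltase-glucoamylase that digests starch, had 26 of its 29 windows in the set, Pak1, a kinase downstream of Rac and Cdc42, had 24 of 26, Vopp1 had 14 of 16 and Macc1, first described in metastatic colon cancer, had 14 of 16. Over Cntnap2 H3K9me3 was 2499, 1267 and 2044 RPM in B16 CTRL, against 71.7, 6.02 and 36.2 RPM in MC38 CTRL. Over Pak1 it was 209, 302 and 299 RPM in B16 CTRL, and no island lay over it in MC38 CTRL.

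In the SETDB1 cells the libraries, which the rule did not use, showed the same line difference. At least 500 bp of H3K9me3 lay over 70.5%, 82.0% and 83.1% of the B16-only windows in the 3 B16 SETDB1 libraries (78.5% ± 6.95, SD, n = 3), and over 9.25%, 17.9% and 5.15% in the 3 MC38 SETDB1 libraries (10.8% ± 6.52, SD, n = 3). Every B16 library lay above every MC38 library. Shared windows had 89.7%, 88.6% and 91.1% in B16 SETDB1 and 82.5%, 92.3% and 77.4% in MC38 SETDB1 libraries. The rule sets the B16 CTRL share at 100% for both sets of windows, so the step down to B16 SETDB1 is in part given by the choice and is no measure of the guide.

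**Figure D2:**
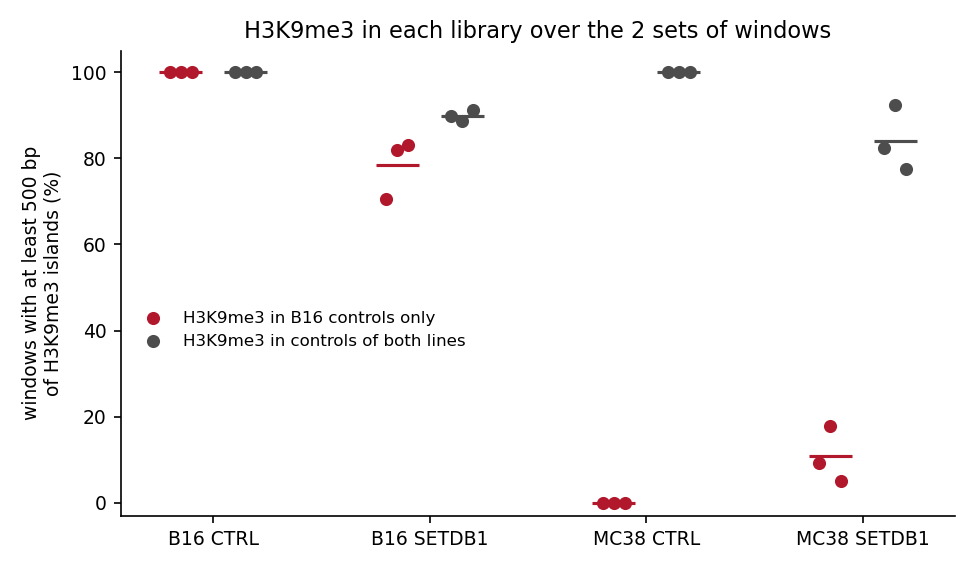
Percent of windows with at least 500 bp of H3K9me3 islands (y axis) in each of the 12 H3K9me3 libraries by line and genotype (x axis), for the 16777 B16-only windows (red) and the 18790 shared windows (grey); points are libraries and bars are means of 3. CTRL values are fixed at 100% or 0% by the choice of windows, and in SETDB1 libraries the B16-only windows stand at 70.5% to 83.1% in B16 and 5.15% to 17.9% in MC38.

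Taking all 3 libraries together, 10254 B16-only windows (61.1%) kept at least 500 bp in all 3 B16 SETDB1 libraries and 1250 (7.45%) had no island in any of them, against 80.3% and 2.70% of shared windows. Shared windows began with broader cover: 12.7% of them, against 4.85% of B16-only windows, had all 5000 bp covered in all 3 B16 CTRL libraries. The part of this cover in the gap between the sets was not tested. In MC38 SETDB1 12180 (72.6%) stayed without any island in the 3 libraries, and 75 (0.447%) were covered in all 3. The last count rested on single libraries: it was 355 without MC38 SETDB1 replicate 1 and 744 without replicate 3. How broadly a window was covered in the controls ran with its state: 49.6% of those whose lowest B16 CTRL cover was 600 to 2400 bp were kept in B16 SETDB1, 75.2% of those at 2600 to 4800 bp and 92.3% of the 813 covered over all 5000 bp. Read density over the covered part was 69.7, 47.1 and 58.4 reads per kb in B16 CTRL and 65.2, 52.9 and 60.9 in B16 SETDB1, and the groups overlap.

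edgeR's quasi-likelihood test was also run window by window between the SETDB1 libraries of the lines. Of the 15443 B16-only windows with a mean of at least 10 reads over the 6 libraries, 5348 had more H3K9me3 in B16 at an adjusted p under 0.05, where 4.80% of all 263011 windows tested were higher in B16. None was higher in MC38 (background 3.67%), while DESeq2 called 22. At an unadjusted p under 0.05 edgeR had 8184 higher in B16 and 6 higher in MC38. Many windows passed the read minimum through B16 reads alone, so these counts are a description and no support for the difference between lines. The calls needed all 3 B16 libraries: 352 were left without B16 SETDB1 replicate 1, and 0 without replicate 2 or 3 (6548 and 6411 at an unadjusted p under 0.05). Leaving out an MC38 library left 6267 to 6941. All 18 windows of the Ccl3 and Ccl4 run and 20 of the 22 of the Sval1 run were called, with 12 of 22 in the Trbv run.

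The 1250 windows without H3K9me3 in B16 SETDB1 libraries were scattered, and the longest run of them had 4 windows. That run (chromosome 15, 63610001 to 63630000) lay 146 kb from Gsdmc, the nearest protein-coding gene. H3K9me3 there was 65.8, 58.9 and 80.1 RPM in B16 CTRL, with no island in the 3 SETDB1 libraries. H3K9Ac over the same 20 kb was 86.8, 119 and 68.5 RPM in B16 CTRL and 75.1, 98.4 and 62.7 RPM in B16 SETDB1, and no MC38 library had an island. The run thus carried strong acetylation in both B16 genotypes, with H3K9me3 called in CTRL alone. All 4 windows were called by edgeR as higher in B16 than in MC38 controls. They passed the read minimum through B16 reads alone, so these calls are a description. Runs of 3 such windows lay in Pms1, a mismatch repair gene, in Dnah7c, an axonemal dynein heavy chain, and 136 kb from Trim24. Over the 3 windows in Pms1 H3K9me3 was 17.6, 21.2 and 14.7 RPM in B16 CTRL and 0 in B16 SETDB1, and H3K9Ac was 5.21, 15.5 and 14.7 RPM in CTRL and 7.75, 18.8 and 9.03 in SETDB1.

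Among 21 genes of H3K9 methylation and heterochromatin, only Atf7ip, which binds SETDB1 and protects it from degradation, held B16-only windows. Both of its 2 windows had no H3K9me3 island in the B16 SETDB1 libraries. Over the gene H3K9me3 was 59.1, 43.2 and 50.0 RPM in B16 CTRL and 8.87, 6.65 and 6.01 RPM in B16 SETDB1. H3K9me3 in B16 CTRL chose the windows, so steps from CTRL to SETDB1 in this mark are a description here and at the genes below. H3K9Ac over Atf7ip was 119, 144 and 112 RPM in B16 CTRL and 197, 230 and 187 RPM in B16 SETDB1, groups that do not overlap, with a log2 difference of 0.75 (SE 0.21) that did not pass (edgeR adjusted p = 0.787). In MC38 it was 120, 163 and 116 RPM in CTRL and 119, 156 and 106 RPM in SETDB1. The zinc finger gene Zfp788 had 2 of its 3 B16-only windows bare in B16 SETDB1, and over the gene H3K9me3 was 26.4, 27.4 and 25.6 RPM in CTRL and 6.30, 0 and 9.82 RPM in SETDB1. In the clustered protocadherins, adhesion molecules of neurons whose gamma genes share most of their length, Pcdhga1 stood for 3 windows, 2 of them bare, with H3K9me3 of 124, 74.1 and 65.2 RPM in B16 CTRL and 0, 5.31 and 0 RPM in B16 SETDB1. The homeobox gene Dlx5 lay in 2 windows, both bare in B16 SETDB1. H3K9me3 over it was 7.17, 7.10 and 10.2 RPM in B16 CTRL, while H3K9Ac was 6.17, 7.11 and 5.93 RPM in B16 CTRL, 5.74, 11.2 and 8.06 RPM in B16 SETDB1 and 0 in all MC38 libraries.

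Windows covered in all 3 MC38 SETDB1 libraries formed no run longer than 2 windows. One pair lay in Spata16, a gene of sperm formation (chromosome 3, 26950001 to 26960000), with 5.74, 9.10 and 34.7 RPM of H3K9me3 in MC38 SETDB1. Another lay at Taar7b, a trace amine receptor (chromosome 10, 24000001 to 24010000), with 5.77, 5.31 and 11.5 RPM. None of the 5 pairs had H3K9Ac in MC38, and replicate 3, the library with the shortest covered length, was the highest at Spata16 and Taar7b.

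H3K9Ac was sparser over B16-only windows than over the genome, but less so than over shared windows. In all 3 libraries at least 500 bp of H3K9Ac lay over 1517 B16-only windows (9.04%) in B16 CTRL and 1916 (11.4%) in MC38 CTRL, where all autosomal windows had 19.5% and 19.5% and shared windows 2.84% and 2.45%. Single libraries had 12.8% to 19.6% in B16 CTRL (16.1% ± 3.39, SD, n = 3) and 17.6% to 22.4% in MC38 CTRL (20.03% ± 2.39, SD, n = 3), ranges that overlap. No H3K9Ac island in any control library was found for 9827 (58.6%), close to the 59.6% of all autosomal windows. Acetylation in MC38 CTRL alone was found in 576 B16-only windows (3.43%, background 1.81%) and in B16 CTRL alone in 347 (2.07%, background 2.03%). In SETDB1 libraries 503 (3.00%, background 1.46%) were acetylated in MC38 alone and 404 (2.41%, background 2.21%) in B16 alone. The share acetylated in MC38 alone was thus above the background in both genotypes, and the share acetylated in B16 alone was near it.

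**Figure D3:**
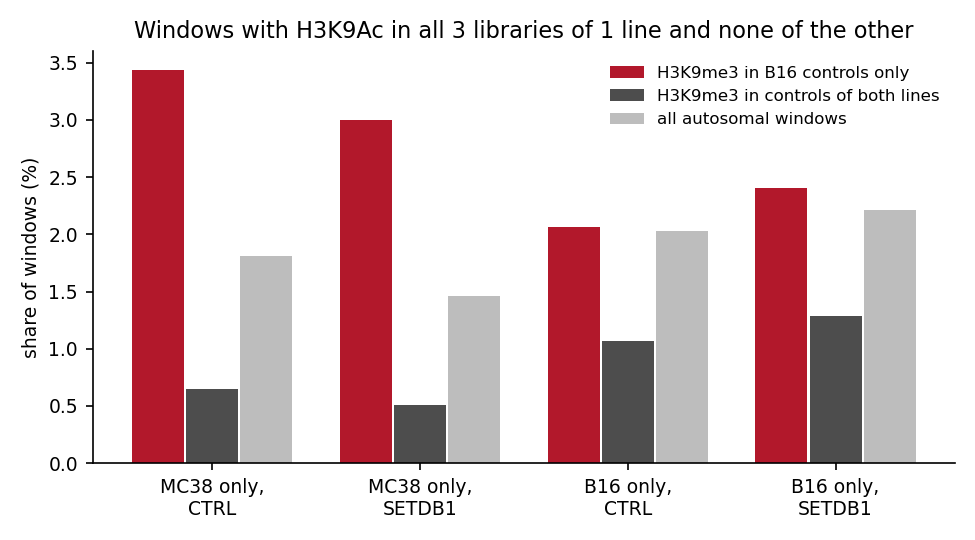
Percent of windows (y axis) with at least 500 bp of H3K9Ac in all 3 libraries of 1 line and none in the 3 of the other line, for CTRL and SETDB1 libraries (x axis), in B16-only windows (red), shared windows (dark grey) and all autosomal windows (light grey). For acetylation in MC38 alone B16-only windows reach 3.43% and 3.00% against 1.81% and 1.46% of all windows, and for B16 alone they are near all windows.

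edgeR's test between the controls, fitted on all 12 H3K9Ac libraries and not on the mark that chose the windows, called 429 of 6976 tested B16-only windows higher in MC38 (6.15%, where 4.69% of all 201802 windows tested were called) and 299 higher in B16 (4.29%, background 6.20%). The log2 difference between lines had a median of 0.29 over the tested B16-only windows and 0.00 over all windows. Between the SETDB1 libraries 382 were higher in MC38 (5.48%, background 3.85%) and 261 in B16 (3.74%, background 5.32%). Calls shared by both genotypes numbered 344 higher in MC38 and 238 higher in B16, and no window changed sides. Windows with no H3K9Ac island in any library of a line passed the read minimum through the other line alone. The background windows faced the same minimum. The counts of calls and the median are therefore a description. The state in B16 SETDB1 libraries was counted for each call: of the 429 higher in MC38, 55.9% kept H3K9me3 in all 3 B16 SETDB1 libraries and 9.09% were bare, while of the 299 higher in B16, 35.5% were kept and 25.8% were bare. The 6248 tested windows without a call had 49.5% kept and 11.7% bare, nearer to those higher in MC38. The 9801 windows with too few reads for a test had 69.6% kept and 4.12% bare, and all B16-only windows 61.1% and 7.45%. The difference between these shares was not tested.

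Among the genes whose acetylation was higher in MC38, some carried no H3K9Ac island in B16 at all. Such genes passed the read minimum of the test through MC38 reads alone, so their p-values are a description. H3K9Ac over Pak1 was 57.5, 62.3 and 52.4 RPM in MC38 CTRL and 61.7, 50.8 and 57.3 RPM in MC38 SETDB1, and no B16 library of either genotype had an island (edgeR adjusted p = 2.27e-05 between controls). H3K9me3 over Pak1 was 226, 332 and 290 RPM in B16 SETDB1, so the gene held 1 mark in each line in both genotypes apart from 1.06 RPM of H3K9me3 in a single MC38 SETDB1 library. Vopp1 had 60.7, 106 and 48.4 RPM of H3K9Ac in MC38 CTRL and none in B16 CTRL (edgeR adjusted p = 0.00876), with H3K9me3 at 181, 218 and 224 RPM in B16 CTRL. Fhl2, a LIM-domain cofactor of transcription, was acetylated in both lines, at 46.4, 39.3 and 55.6 RPM in B16 CTRL and 145, 159 and 106 RPM in MC38 CTRL, a log2 difference of 1.5 (SE 0.24, edgeR adjusted p = 0.00212). In Fhl2 4 neighbouring windows (chromosome 1, 43150001 to 43170000) were acetylated in MC38 alone, at 68.1, 63.6 and 46.9 RPM, where B16 CTRL had 63.6, 70.9 and 60.1 RPM of H3K9me3. Vopp1 and Fhl2 were named after their values were seen.

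Gatm had 33.1, 36.8 and 32.8 RPM of H3K9Ac in MC38 CTRL and no island in B16 (edgeR adjusted p = 6.07e-05), and Scara3, a scavenger receptor, 39.3, 42.1 and 46.8 RPM (edgeR adjusted p = 3.57e-05). Ggta1, which adds a terminal galactose to glycans, had 26, 29.9 and 33.9 RPM in B16 CTRL and 171, 173 and 152 RPM in MC38 CTRL, a log2 difference of 2.43 (SE 0.13, edgeR adjusted p = 2.27e-05). The CTRL libraries of each line lay close together at these 3 genes, while Gatm had 21.2, 25 and 23.9 RPM in MC38 SETDB1, below all MC38 CTRL libraries but not called. Ly75, an endocytic receptor of antigen-presenting cells, differed by 2.35 (SE 0.17) and Plekhh2 by 1.80 (SE 0.14) on the log2 scale. Ggta1, Scara3 and Ly75 each held a single B16-only window. The epithelial keratin Krt8 had 11.3, 6.66 and 17.7 RPM in B16 CTRL and 42.6, 41.8 and 20.7 RPM in MC38 CTRL, a log2 difference of 1.52 (SE 0.42, edgeR adjusted p = 0.0313). Slco1a5, an organic anion transporter with 13 of its 19 windows in the set, had 3.83, 5.58 and 10.9 RPM in B16 CTRL and 31.6, 69.1 and 13.4 RPM in MC38 CTRL, a log2 difference of 2.45 (SE 0.65, edgeR adjusted p = 0.0255). The call was lost without MC38 CTRL replicate 2 or B16 CTRL replicate 1 or 2 for Slco1a5, and without MC38 CTRL replicate 1 or 2 or B16 CTRL replicate 1 or 2 for Krt8. Stricter islands, defined by read density, ended the calls of Krt8 and Ly75, and counting 2 kb around the 5′ end alone ended those of Ly75 and Plekhh2.

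**Figure D4:**
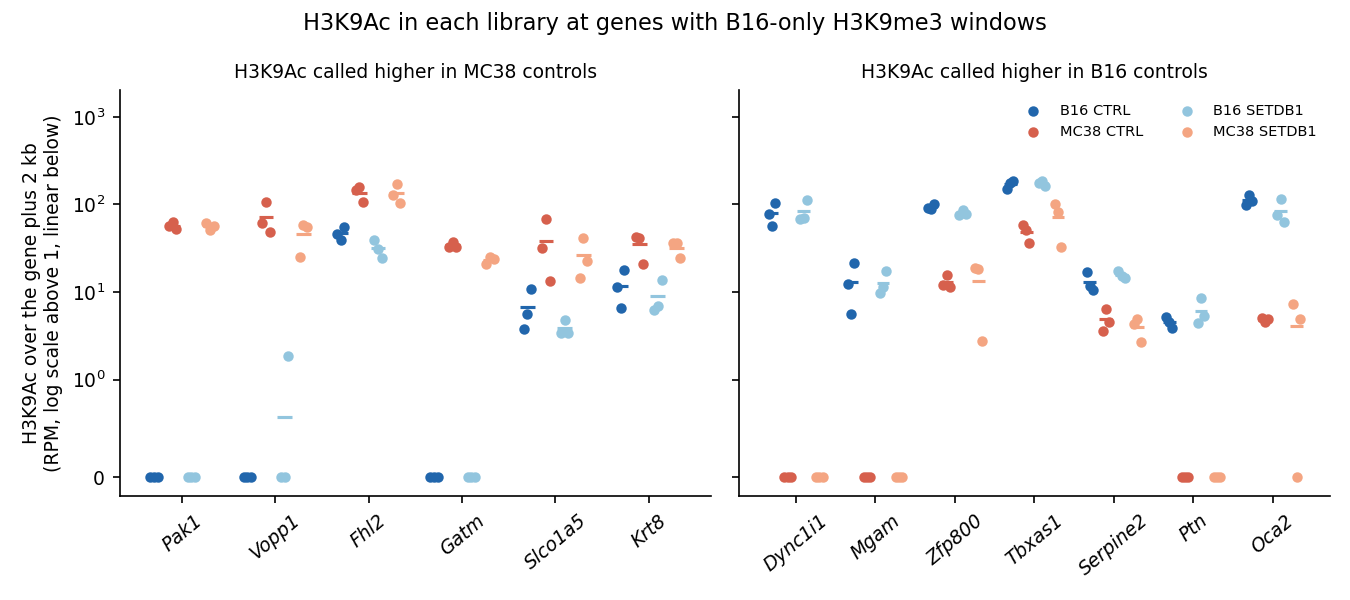
H3K9Ac over 13 genes with B16-only windows (x axis) in each of the 12 libraries as RPM over the gene plus 2 kb on both sides (y axis, logarithmic above 1 and linear below); points are libraries, bars are means of 3 and colours give line and genotype. At Pak1 and Gatm every B16 library is at 0, and at Dync1i1, Mgam and Ptn every MC38 library is at 0.

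Several genes higher in B16 carried H3K9me3 and H3K9Ac in the same line. Those with no H3K9Ac island in any MC38 library passed the read minimum through B16 reads alone, so their p-values are a description. Mgam had 12.3, 5.69 and 21.6 RPM of H3K9Ac in B16 CTRL and none in MC38 (edgeR adjusted p = 0.00089), beside 317, 383 and 481 RPM of H3K9me3 in B16 CTRL. Dync1i1, an intermediate chain of cytoplasmic dynein with 21 of its 61 windows in the set, had 78.5, 57.5 and 104 RPM of H3K9Ac in B16 CTRL and none in MC38 (edgeR adjusted p = 0.000115). H3K9me3 over Dync1i1 was 442, 618 and 572 RPM in B16 CTRL and 488, 633 and 682 RPM in B16 SETDB1. At the growth factor gene Ptn, with 13 of 21 windows in the set, H3K9Ac was low, at 5.15, 4.57 and 3.87 RPM in B16 CTRL and 0 in MC38 (edgeR adjusted p = 0.00223). Cadps2 had 11, 2.31 and 26.3 RPM in B16 CTRL and none in MC38 (edgeR adjusted p = 0.00346). Tbxas1, thromboxane A synthase, was acetylated in both lines, at 152, 177 and 184 RPM in B16 CTRL and 59.0, 50.8 and 35.9 RPM in MC38 CTRL, a log2 difference of -1.86 (SE 0.34, edgeR adjusted p = 0.00398). The 2 marks need not have lain on the same copies or in the same cells, since each value sums a whole gene over a whole culture. With stricter islands, those with at least the median reads per kb of their library, Mgam and Cadps2 were not called, and Tbxas1 was not called with 2 kb around the 5′ end counted alone. Ptn, Dync1i1 and Tbxas1 were named after their values were seen.

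Among the 6 genes higher in B16 with the smallest p, all but Glp2r held a single B16-only window. Tspan12, a tetraspanin of Norrin signalling, had 143, 191 and 143 RPM of H3K9Ac in B16 CTRL and none in MC38 (edgeR adjusted p = 6.61e-05). Gpr37, an orphan receptor of the nervous system, had 33.6, 36.7 and 25.7 RPM and none in MC38 (edgeR adjusted p = 7.17e-05), and its single window was bare in B16 SETDB1. Ccser1 had 47.0, 49.9 and 61.5 RPM and none in MC38 (edgeR adjusted p = 6.07e-05). With 1 of its 242 windows in the set, Ccser1 as a whole had more H3K9me3 in MC38 CTRL (1586, 642 and 1404 RPM) than in B16 CTRL (438, 229 and 250 RPM). Acpp had 78.5, 83.7 and 74.7 RPM in B16 CTRL and 23.3, 17.2 and 21.4 RPM in MC38 CTRL, a log2 difference of -1.98 (SE 0.14). Glp2r, the receptor of an intestinal growth hormone, differed by -2.93 (SE 0.22) and the nuclear pore gene Nup205 by -2.34 (SE 0.18) on the log2 scale. With 2 kb around the 5′ end counted alone, Nup205 stood at 0.02 and Glp2r was not called. The melanosome gene Oca2, the only 1 of 17 melanocyte genes with B16-only windows (3 of 61), had 99.3, 128 and 111 RPM in B16 CTRL and 5.05, 4.56 and 4.92 RPM in MC38 CTRL, a log2 difference of -4.58 (SE 1.06, edgeR adjusted p = 0.0133) that was not called without MC38 CTRL replicate 1 or with stricter islands. Next to Met, the receptor of hepatocyte growth factor, 2 neighbouring B16-only windows (chromosome 6, 17450001 to 17460000) lay 3.35 kb from the gene, with H3K9Ac of 27.8, 61.5 and 17.2 RPM in B16 CTRL and 0 in all MC38 libraries. Their H3K9me3 was 16.3, 22.5 and 34.4 RPM in B16 CTRL and 9.28, 5.69 and 5.38 RPM in B16 SETDB1, a step that the choice of windows in part sets.

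**Figure D5:**
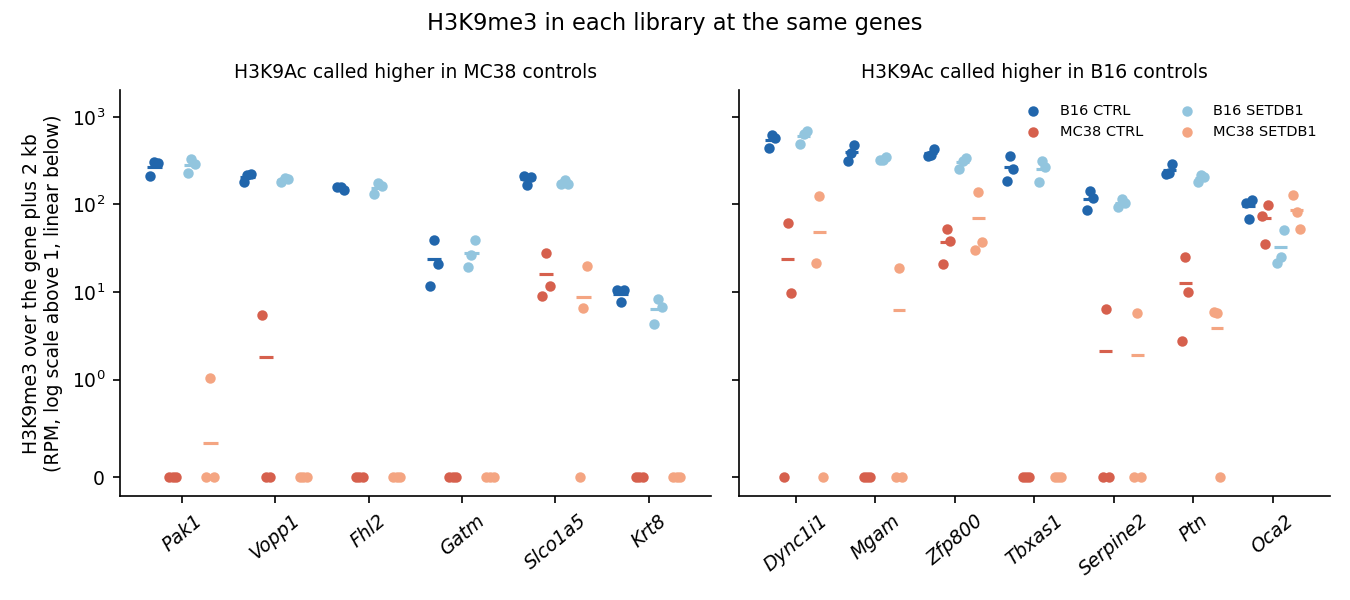
H3K9me3 over the same 13 genes (x axis) in each of the 12 libraries as RPM over the gene plus 2 kb on both sides (y axis, logarithmic above 1 and linear below); points are libraries, bars are means of 3 and colours give line and genotype. B16 CTRL and B16 SETDB1 libraries lie side by side at Pak1, Fhl2 and Dync1i1. At Oca2 and Zfp800 every B16 SETDB1 library lies below every B16 CTRL library, a step that the choice of windows in part sets. Oca2 and Zfp800 also have H3K9me3 in every MC38 library elsewhere along the gene.

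Counted over genes, 211 of 2021 tested genes with B16-only windows had more H3K9Ac in MC38 (10.4%, where 12.6% of 17205 protein-coding genes and 9.80% of all 33363 genes tested were called) and 288 had more in B16 (14.3%, backgrounds 11.5% and 9.59%). The direction is the reverse of that over the windows themselves, and a gene's value includes all its other windows. The median log2 difference was -0.14 in these genes and -0.02 in all protein-coding genes. Of 147 long genes of neurons and synapses 49 (33.3%) held B16-only windows, against 10.8% of all protein-coding genes, and the median length of the 147 was 581 kb. Per window the order is the reverse, since 1.33% of the windows of these genes were B16-only against 2.42% for all protein-coding genes. Of these 49, 3 were higher in MC38 (Phactr1, Cacnb2 and Unc13c) and 17 in B16, Rims1, Ryr3 and Kcnd2 among them, with a median of -1.58. Collagens held windows in 15 of 42 genes, with Col24a1 higher in MC38 (130, 150 and 195 RPM against 16.4, 16.7 and 31.1 in B16 CTRL) and Col28a1 higher in B16 (50.1, 73.9 and 69.1 RPM and 0 in MC38 CTRL). With 2 kb around the 5′ end counted alone, Col24a1 stood at -1.21 and neither it nor Col28a1 was called.

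Of 134 cytochrome P450 genes, enzymes of drug and lipid metabolism, 30 (22.4%) held windows, of which 20 were tested, 1 was higher in MC38 (Cyp2c65, a call lost without MC38 CTRL replicate 1 or 2) and 1 in B16 (Cyp4b1). Solute carriers held windows in 60 of 386 genes, with 5 higher in MC38 and 7 in B16 of 57 tested. Of all 17205 protein-coding genes tested, 12.6% were higher in MC38 and 11.5% in B16, the background for each family here. The difference of a family from these shares was not tested. Keratins and keratin-associated proteins held them in 11 of 111, with Krt8, Krtap1-5 and Krtap1-4 higher in MC38 of 7 tested. Zinc finger genes held them in 45 of 442 (10.2%), close to the share of all genes, with 7 higher in MC38 and 5 in B16 of 44 tested. Clustered protocadherins held them in 23 of 58, which share the same windows, and none of 22 tested was called. Among genes of germ cells 10 of 35 held windows, and Hormad1, a protein of the meiotic chromosome axis, was higher in MC38 (8.19, 6.81 and 6.25 RPM in B16 and 11.9, 10.5 and 25.8 RPM in MC38 CTRL, edgeR adjusted p = 0.0484), a call lost without MC38 CTRL replicate 3 or without any 1 of the 3 B16 CTRL libraries. Sensory receptor genes are short, and 72 of 1420 olfactory (5.07%) and 31 of 623 vomeronasal receptor genes (4.98%) held windows. Per window their shares were 4.28% and 2.82%, above the 2.42% of all protein-coding genes. Of antigen presentation genes only H2-K1 and Nlrc5 held windows, and neither was called (edgeR adjusted p = 0.307 and 0.249). H3K9Ac over Nlrc5, the activator of MHC class I genes, was 67.3, 45.6 and 81.6 RPM in B16 CTRL and 129, 46.6 and 146 RPM in MC38 CTRL, which overlap. Of 32 interferon and nucleic acid sensing genes 3 held windows (Zbp1, Cgas and Oas1a), and Cgas, the sensor of cytosolic DNA, was higher in MC38 by 0.36 (SE 0.10, edgeR adjusted p = 0.0358), a call lost without any 1 of the MC38 CTRL libraries or B16 CTRL replicate 3, with stricter islands and with 2 kb around the 5′ end. Against 10.8% of all protein-coding genes, windows were held by 6 of 30 gut epithelium genes (20%) and 5 of 25 leukocyte genes (20%), with Ptprc leading. Per window the shares were 2.70% for gut epithelium and 7.83% for leukocyte genes, against 2.42% for all protein-coding genes. Counted by gene, they were 2 of 25 for fibroblast genes (8%), 3 of 34 for imprinted genes (8.82%), 7 of 68 for serpins (10.3%) and 4 of 43 for genes of the Hox clusters (9.30%). Of these Mest, an imprinted gene with 56.0, 51.6 and 47.8 RPM in B16 CTRL and none in MC38 CTRL, and the protease inhibitor gene Serpine2 (-1.45, SE 0.34, not called without B16 CTRL replicate 1) were higher in B16, and Hoxa11 and its antisense transcript Hoxa11os, whose reads these files cannot tell apart, were higher in MC38.

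Few B16-only windows passed the test for H3K9Ac between CTRL and SETDB1 cells of a line. In B16 19 of 6976 tested windows were higher in SETDB1 (background 0.142%) and 2 were higher in CTRL (background 0.0178%), and 12 were called with the replicate number as a block. The count was 37 without B16 CTRL replicate 2, 35 without B16 CTRL replicate 3 and 33 without B16 SETDB1 replicate 2. All 19 had no H3K9Ac island in any B16 CTRL library and 0.661 to 13.7 RPM in B16 SETDB1 libraries. H3K9me3 was absent from the 3 B16 SETDB1 libraries in 7 of them, kept in all 3 in 4 and mixed in 8. At the window in Rab3gap1, part of the complex that activates RAB18 (chromosome 1, 127935001 to 127940000), H3K9Ac was 0 in B16 CTRL and 9.31, 7.76 and 10.4 RPM in B16 SETDB1 (edgeR adjusted p = 0.000436). H3K9me3 in that window was 9.80, 10.4 and 13.4 RPM in B16 CTRL and 0 in the 3 SETDB1 libraries, so islands of each mark were found in 1 genotype of B16 alone. A window 8.11 kb from Suz12, a Polycomb subunit (chromosome 11, 79980001 to 79985000), went from 0 to 8.60, 8.59 and 3.89 RPM of H3K9Ac and from 11.6, 9.19 and 9.22 RPM to 0 of H3K9me3. In Fam126b (chromosome 1, 58575001 to 58580000) H3K9Ac rose from 0 to 5.61, 8.65 and 8.12 RPM beside H3K9me3 of 19.8, 14.4 and 18.8 RPM in CTRL and 6.30, 4.08 and 5.12 RPM in SETDB1. The windows higher in CTRL lay in Reep1 and Xdh. Rab3gap1, Suz12 and Fam126b were named after their values were seen.

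All 12 libraries share 1 fit, and these calls ran with the state of MC38. Of 97 B16-only windows with H3K9Ac islands in all 3 B16 SETDB1 libraries and none in the 3 CTRL, 19 were called, and all 19 were acetylated in each of the 6 MC38 libraries, which none of the 78 uncalled ones was. Acetylation in MC38 is therefore not reported as a property of the called windows. By bases alone, 82 windows gained at least 500 bp in all 3 B16 SETDB1 libraries from none (0.489%, background 0.267%) and 11 lost it (background 0.0360%). Of the 82, 21 had no H3K9me3 island in B16 SETDB1. In MC38 26 windows gained acetylation by this rule (background 0.0961%) and 17 lost it (background 0.0668%). By edgeR 2 MC38 windows were higher in SETDB1 (background 0.05%) and 2 in CTRL (background 0.0297%), and 1 was called with the block. Leaving out 1 library of MC38 gave 6 to 17, the most without MC38 CTRL replicate 3 (17) and MC38 SETDB1 replicate 3 (16). The 4 lay near Mnd1 and Grm4, where MC38 SETDB1 was higher, and in Slc7a9 and near Tpcn2, where MC38 CTRL was higher, and were named after their values were seen. The 6 libraries of a line fitted alone gave 0 calls in either line (212 windows in B16 and 74 in MC38 passed 0.05 unadjusted). DESeq2, fitted to the 12 together, gave 545 and 299. Over whole genes with B16-only windows edgeR called none of 2021 between B16 CTRL and SETDB1 (backgrounds 0.0349% and 0.00581%), and in MC38 it called Myom2 higher in SETDB1 and Ano4 and Rgs22 higher in CTRL (backgrounds 0.0349% each).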

How the data were processed

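H3K9me3 and H3K9Ac were profiled by chromatin immunoprecipitation and sequencing in 12 libraries each, and 4 input samples were not used here. The deposited files list islands with read counts per island. Per the submitters' processing notes the tools were cutadapt, Bowtie2 2.1.0, SAMtools 0.1.8, SICER 1.1 and deepTools 3.1.1 on mm10. The background used for calling islands is not given in the sources used here. Any place without an island has 0, so weak signal is lost. Island reads were divided over 5 kb windows and over genes plus 2 kb on both sides (RefSeq GRCm38.p6), and RPM is per 1000000 island reads of a library. edgeR 4.0.16 (R 4.3.3) ran its quasi-likelihood test with TMM scaling on features with a mean of at least 10 reads and Benjamini-Hochberg adjustment at 0.05 over all features. It was fitted on the 6 SETDB1 libraries for H3K9me3 and on all 12 libraries for H3K9Ac. A window or gene with no island in any library of a line passed the read minimum through the other line alone. The p-value of such a window or gene is a description. DESeq2 1.42.0 was an alternative. The edgeR test was also run on simulated counts with a single fixed spread. Those counts had no island calling and no pairing, so they do not check the test for data like these. Same-numbered H3K9Ac libraries of CTRL and SETDB1 deviated together within B16 (correlations 0.228, 0.488 and 0.413) and within MC38 (0.125, 0.444 and 0.277). Between the lines same-numbered H3K9Ac libraries had correlations of 0.062 to 0.22, for each number below those within a line. The numbers may thus pair samples within a line, and part of the deviation was shared across lines. Such a pairing comes from the data and is in no label. The main fits left the number out, and counts with it as a block are given below. Genes were named by a fixed rule: the 10 with the most windows, those of the longest runs, 6 in each direction with the lowest p values and up to 2 of each gene list. Others are said to be named after values were seen, as were Ankrd1, Arl14, Ch25h, Krt8, Dlx5, Hormad1, Col24a1, Col28a1, Macc1, Try10, Prss3 and Met. The windows and lists were chosen with earlier results of these data known.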

Additional observations from a re-analysis of the deposited data

How the results depend on the processing

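The number of B16-only windows was 6985 when 2500 bp were needed in each B16 CTRL library, 8938 with stricter islands (those with at least the median reads per kb of their library) and 18728 to 24082 without 1 control library. Windows kept in B16 SETDB1 were 6367 at 2500 bp, 5730 with stricter islands and 10775 to 12600 without 1 library. Bare windows were 3155 with stricter islands and 1541 to 1822 without 1 library in B16, and 12699 to 14252 in MC38. Windows covered in MC38 SETDB1 were 11 at 2500 bp, 3 with stricter islands and 107 to 744 without 1 library. Calls between SETDB1 libraries in H3K9me3 were 9784 by DESeq2, 0 to 6941 without 1 library and 0 with the replicate number as a block (3000 at an unadjusted p under 0.05), where the numbers are not known to pair the samples. H3K9Ac calls between lines were 2069 by DESeq2 and 589 to 701 without 1 library in CTRL, and 1865 and 521 to 645 in SETDB1. With the block they were 587 and 531, and 677 over genes. Between genotypes they were 545 by DESeq2, 12 with the block, 4 with stricter islands, 0 from the 6 libraries alone and 20 to 37 without 1 library in B16, and 299, 1, 0, 0 and 6 to 17 in MC38. Calls over genes were 140 with 2 kb around the 5′ end and 392 to 477 without 1 library. Differences changed sign for Pms1 (0.10), Nup205 (0.0207) and Col24a1 (-1.21) with 2 kb around the 5′ end, and for Hormad1 (-0.0189) with stricter islands. Of 41 named genes called, 11 lost the call with stricter islands (Cadps2, Mgam, Ly75, Oca2, Cgas, Zfp800, Setdb1, Krt8, Dlx5, F5 and Arl14), 3 with the block (Cyp2c65, Prss58 and Hormad1) and 5 to 8 without 1 library. With 2 kb around the 5′ end only 24 of the 41 had a value, of which 13 kept the call, 8 lost it (Ly75, Plekhh2, Glp2r, Cgas, Setdb1, Tbxas1, F5 and Col28a1) and 3 changed sign. The cause was not tested.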
